A study of Rattus norvegicus with 24 samples.

Results

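The genes described here are 9 that are imprinted in mammals, in the adult rat hippocampus: Peg3, Ndn, Magel2, Snrpn, Ube3a, Igf2, Igf2r, Plagl1 and Cdkn1c. They were chosen by name, not by their values, and all 9 were found among the 32883 genes of the count table. RNA had been sequenced from the whole hippocampus of 24 F0 rats of generation F37, with 6 males and 6 females of the bHR line (bred High Responder, selected for much locomotion in an unfamiliar cage) and 6 males and 6 females of the bLR line (bred Low Responder, selected for little). None of the groups had an engineered allele or a drug treatment, and all were tested for locomotion and on the elevated plus maze. The labels give 12 families, each with 1 male and 1 female, and ages of 151 to 165 days for the males used and 188 to 192 days for the females, older than the extraction protocol states; the difference is unresolved. Sex, age and the day of dissection therefore cannot be told apart. Values are over 23 rats, without the bHR female of family H05 that the study left out for a low RNA integrity number, so that bHR females number 5.

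In an imprinted gene the copy from one parent is silenced, often under the control of a methylation mark set in the germ line, and the other copy supplies the transcript. Many imprinted genes act on growth, on the placenta and on the developing brain, and several stay active in adult neurons. Peg3, Ndn, Magel2, Snrpn, Igf2 and Plagl1 are known as paternally expressed genes, and Cdkn1c as a maternally expressed one. Ube3a is silenced on the paternal copy in neurons, and rodent Igf2r is expressed from the maternal copy in most tissues but is largely biallelic in neurons. For Igf2 the brain is an exception, since the choroid plexus and the meninges express both copies. The counts did not separate the parental copies, so the values below are totals.

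All 9 genes lie on chromosome 1 of the rat build Rnor6. Ube3a spans 116587815 to 116679973, Ndn 122981755 to 122983351 and Magel2 123015746 to 123019522, all on the plus strand. These genes and Snrpn belong to the region that is lost or mis-imprinted in Prader-Willi and Angelman syndromes in people. Snrpn, annotated at 195074330 to 195096460 on the minus strand, shares its start region and strand with Snurf (195074330 to 195096694), and reads from the common exons cannot be told apart by gene. Rnor6 places this locus away from Ube3a and Ndn, whereas in the RefSeq build GRCr8 its start lies between theirs. Igf2 (215828102 to 215846911) and Cdkn1c (216661080 to 216663721) are neighbours on the minus strand in the large growth-control cluster. Peg3 spans 70222964 to 70237443, Igf2r 48176106 to 48264477 and Plagl1 7252349 to 7259035, all on the plus strand.

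Promoter sequence is shown for 4 genes whose levels moved together or in opposition below, because imprinting marks are set by methylation of CG pairs. Such a mark need not lie in the promoter of the silenced gene, and methylation of these windows was not measured. Igf2r, which had the highest r with Peg3, is not printed. Each line gives the 250 bases before the RefSeq start in build GRCr8, 5′ to 3′, with every CG in capitals. The windows are chr1:76130744-76130993 (plus strand) for Peg3, chr1:119205898-119206147 (plus) for Ube3a, chr1:125260809-125261058 (plus) for Ndn and chr1:120339154-120339403 (minus) for Snurf.
Peg3: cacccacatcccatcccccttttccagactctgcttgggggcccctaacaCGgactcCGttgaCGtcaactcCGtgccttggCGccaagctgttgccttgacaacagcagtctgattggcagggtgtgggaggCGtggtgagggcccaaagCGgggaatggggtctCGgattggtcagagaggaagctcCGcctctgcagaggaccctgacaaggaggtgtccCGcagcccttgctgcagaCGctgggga
Ube3a: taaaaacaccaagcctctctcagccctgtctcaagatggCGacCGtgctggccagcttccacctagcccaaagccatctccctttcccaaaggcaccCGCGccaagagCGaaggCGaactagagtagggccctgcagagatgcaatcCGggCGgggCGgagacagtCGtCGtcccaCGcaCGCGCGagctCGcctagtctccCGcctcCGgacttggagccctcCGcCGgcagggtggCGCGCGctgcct
Ndn: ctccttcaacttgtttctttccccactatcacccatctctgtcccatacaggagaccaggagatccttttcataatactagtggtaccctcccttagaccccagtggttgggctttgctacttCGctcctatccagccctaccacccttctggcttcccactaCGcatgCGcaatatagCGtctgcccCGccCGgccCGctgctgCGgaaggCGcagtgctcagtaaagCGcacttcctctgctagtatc
Snurf: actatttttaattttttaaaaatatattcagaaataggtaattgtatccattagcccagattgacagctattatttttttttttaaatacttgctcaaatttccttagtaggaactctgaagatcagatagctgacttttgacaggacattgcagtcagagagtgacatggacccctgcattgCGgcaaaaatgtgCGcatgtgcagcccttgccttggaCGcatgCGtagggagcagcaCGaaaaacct

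The Ube3a window held 23 CG pairs, Peg3 11, Ndn 10 and Snurf 5, beside a median of 5 over the 33469 promoter windows of the RefSeq table. The Igf2r and Plagl1 windows also held 23, more than in 87.7% of all windows. In the Snurf window every CG lay in the stretch nearest the start. In all, 6 short motifs were searched on both strands. TGACGT (the CRE core) was in 6.95% of all windows, in that of Igf2r and, as 1 palindrome read on both strands (tgaCGtca), in that of Peg3. GCATGCGC (the NRF-1 core) was in 2.20% of all windows and in that of Ndn. GCCATNTT (the YY1 core) was in 4.23% and in that of Ube3a. CACGTG (an E-box) was in 5.59% and in those of Igf2r and Plagl1, and TATAAA in 12.9% and in that of Magel2. GGGCGG (a GC box) was in 30.5% and in those of Ndn, Magel2, Ube3a, Igf2r, Plagl1 and 1 of the pair of Igf2 windows. Of the 9 genes, 8 were matched to the RefSeq table, and the Snurf window also overlaps the pseudogene Rhog-ps3.

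Levels are given in CPM, the reads of a gene scaled to a common library total, which can be compared between rats for 1 gene but not between genes of different length. Ndn, the gene for necdin, a MAGE-family protein of postmitotic neurons, was read at 221 to 674 CPM with a median of 400.3 over the 23 rats. Peg3, a zinc finger protein active in brain and placenta, ranged from 85.3 to 366 CPM around a median of 225. Ube3a, an E3 ubiquitin ligase, kept within 25.0 to 75.7 CPM, a ratio of 3.02 between the highest and lowest rat. These genes were far above detection in every rat.

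Igf2, the gene for insulin-like growth factor 2, ranged from 23.1 to 220.3 CPM, with a median of 41.6. Igf2r, whose receptor clears that growth factor and carries lysosomal enzymes, lay between 9.32 and 42.2 CPM with a median of 26.1. Cdkn1c, an inhibitor of cyclin-dependent kinases, lay between 8.19 and 52.6 CPM with a median of 20.2. Both Igf2 and Cdkn1c had most rats close together and a few far above them.

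The counts of the other members were close to the detection limit. Magel2, a MAGE-family partner of ubiquitin ligases, had 9 to 112 reads per rat (0.316 to 4.52 CPM). Snrpn, a component of the spliceosome, had 1 to 55 reads (0.0497 to 2.13 CPM), and Snurf, on the same locus, 0.844 to 11.4 CPM. The annotated span of Snrpn lies within that of Snurf on the same strand, so its count need not give the level of the gene. Plagl1, a zinc finger transcription factor of embryonic growth, was at 0 in 2 bLR males and reached 3.08 CPM in a bHR female. At this depth (16824899 to 28443049 reads counted on genes) the last gene passed the filter for testing with few reads to spare.

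**Figure D1:**
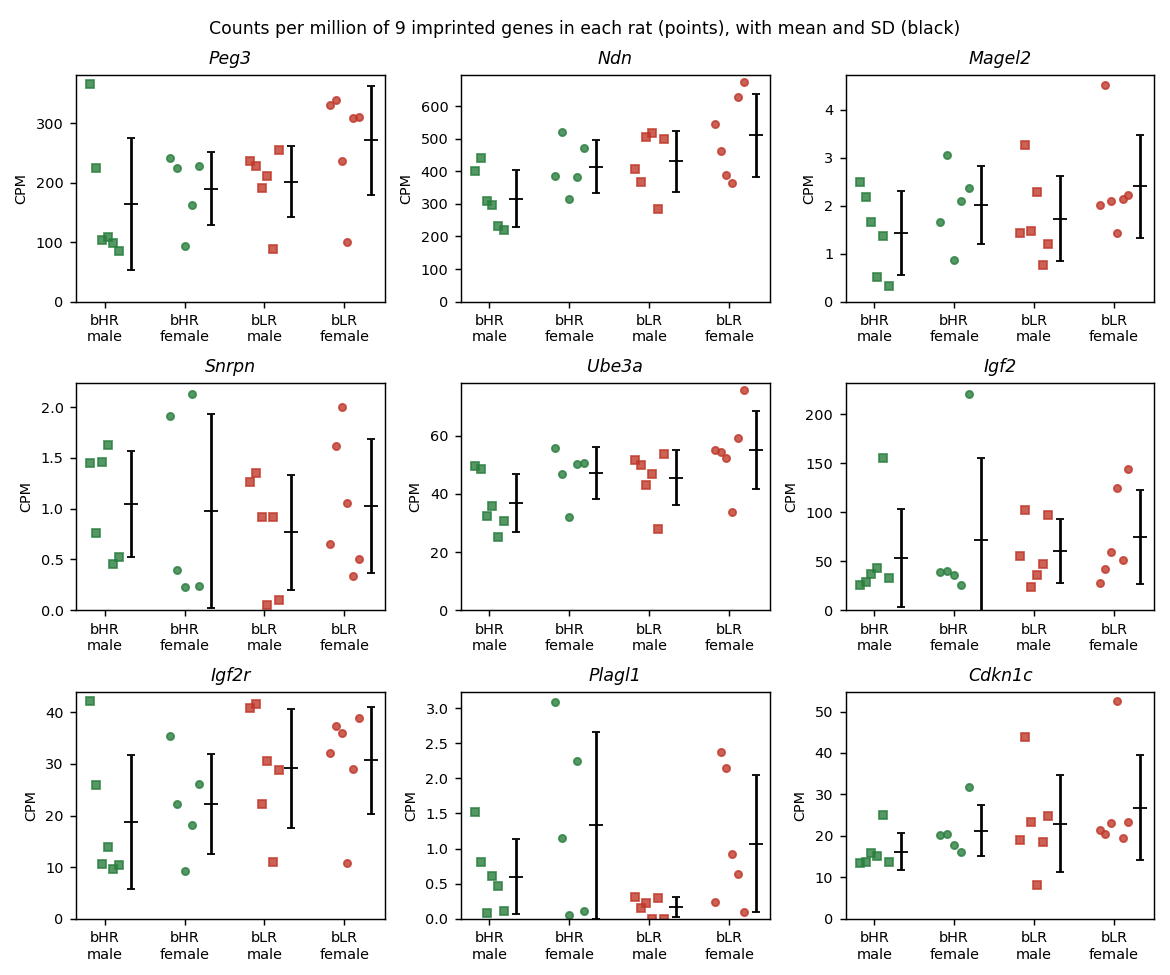
CPM (vertical axes, from 0) of each of the 9 genes in each rat, by line and sex, with squares for males, circles for females, green for bHR and red for bLR, and the mean with its SD in black (bars that would pass below 0 are drawn to the axis). The points of the subgroups overlap for each of the 9 genes, and Igf2 has single rats at 155 and 220.3 CPM far above the rest of their subgroups.

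The bHR and bLR lines were compared to ask whether selection on locomotion came with other levels of imprinted genes. Among the 9 genes, 0 differed between the lines at FDR < 0.10 in edgeR's quasi-likelihood test, where 1.34% of all 13838 genes tested did. At an unadjusted p under 0.05 the count was 2 of 9 by edgeR (9.96% of all genes). It was 1 in limma-voom (9.80%), and over rats left out in turn it ran from 0 without the L03 bLR male (8.99%) to 3 without the H12 bHR female (15.6%). Of the 9 fitted differences 7 were above 0, with a median Log2FC (bLR vs. bHR) of 0.14, beside -0.0035 over all genes tested. In whole tissue, more cells of a type and more RNA per cell cannot be told apart, here and in all that follows.

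Cdkn1c had the smallest p of the members. In the bHR rats it lay between 13.5 and 31.7 CPM with a median of 16.0, and in the bLR rats between 8.19 and 52.6 CPM with a median of 22.3. The lines overlapped, and both the lowest and the highest rat were bLRs. The Log2FC was 0.50 (SE 0.21), with an unadjusted p of 0.0226 and an adjusted p of 0.379 in edgeR. Without the bHR female of family H12 it became 0.63 with an adjusted p of 0.0955, in a fit that called 3.16% of all genes. Among the other rats left out in turn, none brought a member past the threshold. The Log2FC was 0.37 (unadjusted p 0.103) without the L07 bLR female, 0.37 (unadjusted p 0.0641) without the L03 bLR male, 0.31 (unadjusted p 0.198) without technical terms and 0.20 (unadjusted p 0.551) in females alone, all in edgeR. That female had the highest Cdkn1c of the bHRs and also the highest Folr1, a folate receptor gene of choroid plexus epithelium.

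Plagl1 had the largest fitted difference, and the fewest reads. In bHR males it was at 0.0813 to 1.53 CPM (median 0.531), and in bLR males at 0 to 0.316 CPM (median 0.190). In bHR females it was at 0.0457 to 3.08 CPM and in bLR females at 0.0907 to 2.38 CPM. The lines overlapped in each sex, and in females each range covered most of the other. The Log2FC was -0.84 (SE 0.41, unadjusted p 0.0486, adjusted p 0.496 in edgeR). Its interaction of lineage with sex was 1.78 (SE 0.83), with an unadjusted p of 0.0430 and an adjusted p of 1.00 in edgeR, and 0 of the 9 members (0.0% of all genes) were called for the interaction. At an unadjusted p under 0.05 Plagl1 was the 1 member, beside 2.35% of all genes. With %intergenic added, as in the other fits, its unadjusted p was 0.0749, and the 1 member was Igf2r (-0.79, unadjusted p 0.0158, adjusted p 0.561 in edgeR) beside 8.26% of all genes. Over all 24 rats there were 0 members, beside 1.30% of all genes.

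Ndn ran from 221 to 519 CPM in bHRs (median 383) and from 285 to 674 CPM in bLRs (median 481). Its Log2FC of 0.25 (SE 0.13) had an unadjusted p of 0.0753 and an adjusted p of 0.562 in edgeR. It was 0.13 without the L06 bLR male, 0.40 (unadjusted p 0.0450 in edgeR) without technical terms, 0.31 (unadjusted p 0.0228 in edgeR) without the H12 bHR female, 0.41 (unadjusted p 0.0470 in edgeR) in males alone and 0.11 (unadjusted p 0.590 in edgeR) in females alone. For Igf2r the median was 18.1 CPM in bHRs and 31.3 in bLRs, but with %rRNA and %intergenic in the fit the Log2FC was 0.24 (SE 0.18, adjusted p 0.717 in edgeR). The Log2FC of Igf2r was 0.59 without technical terms and 0.52 with %rRNA alone (unadjusted p 0.0275 and 0.0468, adjusted p 0.365 and 0.292 in edgeR), and ran from 0.11 without the H02 bHR male to 0.36 without the L07 bLR female. It was 0.66 (unadjusted p 0.0862 in edgeR) in males alone and 0.36 (unadjusted p 0.289 in edgeR) in females alone. Ndn followed the first of those shares and Igf2r the second, as described below. Peg3 (0.14, SE 0.18), Magel2 (0.11, SE 0.28), Ube3a (0.09, SE 0.10), Igf2 (0.17, SE 0.41) and Snrpn (-0.14, SE 0.27) had Log2FCs smaller than their standard errors. Without technical terms Peg3 had 0.43 (SE 0.24, unadjusted p 0.0825 in edgeR) and Ube3a 0.28 (SE 0.15, unadjusted p 0.0733 in edgeR). Over rats left out in turn, Peg3 ran from 0.060 without the L06 bLR male to 0.25 without the L07 bLR female, Ube3a from 0.024 without the H02 bHR male to 0.16 without the L07 bLR female, and Snrpn from -0.31 without the H02 bHR male to -0.0019 without the H08 bHR male.

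Females and males were set side by side in the same way, with age and day of dissection moving with sex. Again 0 of the 9 genes passed FDR < 0.10 in edgeR (0.354% of all genes did), and 2 of 9 had an unadjusted p under 0.05 (11.2% of all genes). That count was 5 without the L03 bLR male (13.0%), 4 with family as a fixed block (8.48%) and 6 with Folr1 as a covariate (12.0%), and it ran from 2 to 5 over rats left out in turn. Without technical terms it was 1 (4.82%), and Ube3a and Ndn, named next, then had Log2FCs of 0.18 (unadjusted p 0.231 in edgeR) and 0.21 (unadjusted p 0.282 in edgeR). Ube3a ran from 25.0 to 53.8 CPM in males (median 45.1) and from 32.1 to 75.7 CPM in females (median 52.3), with a Log2FC (female vs. male) of 0.28 (SE 0.10, unadjusted p 0.00758, adjusted p 0.305 in edgeR). Ndn ran from 221 to 518 CPM in males and from 314 to 674 in females, with a Log2FC of 0.32 (SE 0.13, unadjusted p 0.0198, adjusted p 0.367 in edgeR). Of the 9 fitted values 8 were above 0, with a median of 0.32 beside -0.03 over all genes tested. Snrpn was the exception at -0.48 (SE 0.27). It ran from -0.75 to -0.31 over rats left out in turn, and was -0.046 at its smallest in size over all other fits.

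**Figure D2:**
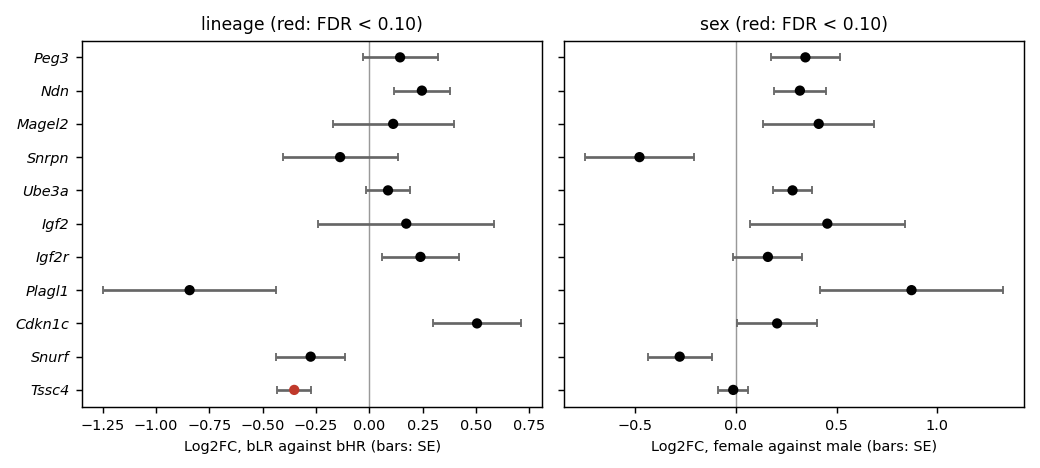
Log2FC (horizontal axes) with its SE for the 9 genes, Snurf and Tssc4, on the left for bLR against bHR and on the right for female against male, in red where FDR < 0.10. Tssc4 in the lineage comparison is the 1 red point, at -0.35.

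Of 56 other genes listed as imprinted, 13 could be matched to an Ensembl ID and 12 passed the filter. The list was drawn up with earlier results of these data known. Of the 12, 1 was called for lineage (1.34% of all genes) and 4 had an unadjusted p under 0.05 (9.96% of all genes). Among them 7 had fitted differences above 0 and 5 below, and the median Log2FC was 0.09. The gene called was Tssc4, a neighbour of Cdkn1c in the growth-control cluster. It lay at 26.7 to 42.2 CPM in bHRs (median 36.0) and 18.0 to 33.8 in bLRs (median 29.2), overlapping ranges. Its Log2FC was -0.35 (SE 0.08, adjusted p 0.0234 in edgeR), opposite in sign to that of Cdkn1c. The adjusted p was 0.581 in males alone, 0.640 in females alone and 0.136 without 1 bHR male, of family H02. Phlda2, a growth regulator of the same cluster, had 0.45 (SE 0.16, adjusted p 0.263 in edgeR), and Mkrn3, in the Prader-Willi region, -0.31 (SE 0.14, adjusted p 0.463 in edgeR). For sex, 0 of the 12 passed.

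Rats of 1 line and sex differed widely in several of these genes. The biological coefficient of variation (BCV, the spread between rats that edgeR estimates after the terms of the fit) was 0.608 for Igf2, 3.46 times the trend for genes of its level and higher than in 99.4% of all genes tested. Plagl1 had 0.570 (1.92 times the trend) and Magel2 0.417 (1.49 times), both low in reads. Cdkn1c had 0.327, 1.72 times the trend, and Peg3 0.276, 1.55 times. Ube3a had the lowest of the members, 0.162, which was 0.907 times the trend and higher than in 28.9% of all genes tested.

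The spread within line, taken as the mean distance of a rat's log2 CPM from its subgroup median, was compared between the lines. Ube3a was at 0.169 in bHRs and 0.352 in bLRs, and Ndn at 0.253 and 0.449. These 2 of 9 had an unadjusted p under 0.05 (0.0372 and 0.0407, 2.41% of all genes, two-sided permutation test with 100000 permutations), and adjusted over all genes tested both stood at 0.998. With the technical shares taken out the difference was 0.01 for Ube3a and -0.03 for Ndn. For the other members the unadjusted p ran from 0.387 to 0.992.

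To ask whether rats of 1 family label were alike, the male and female of each of the 11 families with both rats were compared as deviations from the means of their subgroups. Over the 9 genes, 0 had an exact permutation p under 0.05 (2.83% of all genes did; every pairing within line, 86400 in all, two-sided). Plagl1 gave r = 0.46 (rho 0.41, exact permutation p 0.169 for r and 0.253 for rho), and 0.20 (exact permutation p 0.600) with the technical shares taken out. Cdkn1c gave r = -0.61 (rho -0.48, exact permutation p 0.0691 and 0.162), and -0.30 without the 2 families farthest from the median male. The other 7 had r between -0.18 and -0.01. On dropping the same number of families r became 0.64 for Ube3a, 0.38 for Magel2 and 0.29 for Igf2, so that these values rested on a few families. Adjusted over all genes tested, the smallest exact p among the members was 0.888.

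In some families the mates lay far apart in Cdkn1c, while in 5 of the 11 both lay on the same side of their subgroup means. In family L07 the female was read at 52.6 CPM and the male at 8.19, the highest and the lowest rat of the series. In H11 the male had 25.0 CPM and the female 16.0, and in L03 the male had 43.9 and the female 20.5. With the technical shares taken out, r was -0.75 (exact permutation p 0.00931 before adjustment). Igf2 was at 155 CPM in the H11 male and 25.9 in the H11 female. The labels' growth text speaks of 24 families where the family labels name 12, so it is unsure what a shared label stands for.

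**Figure D3:**
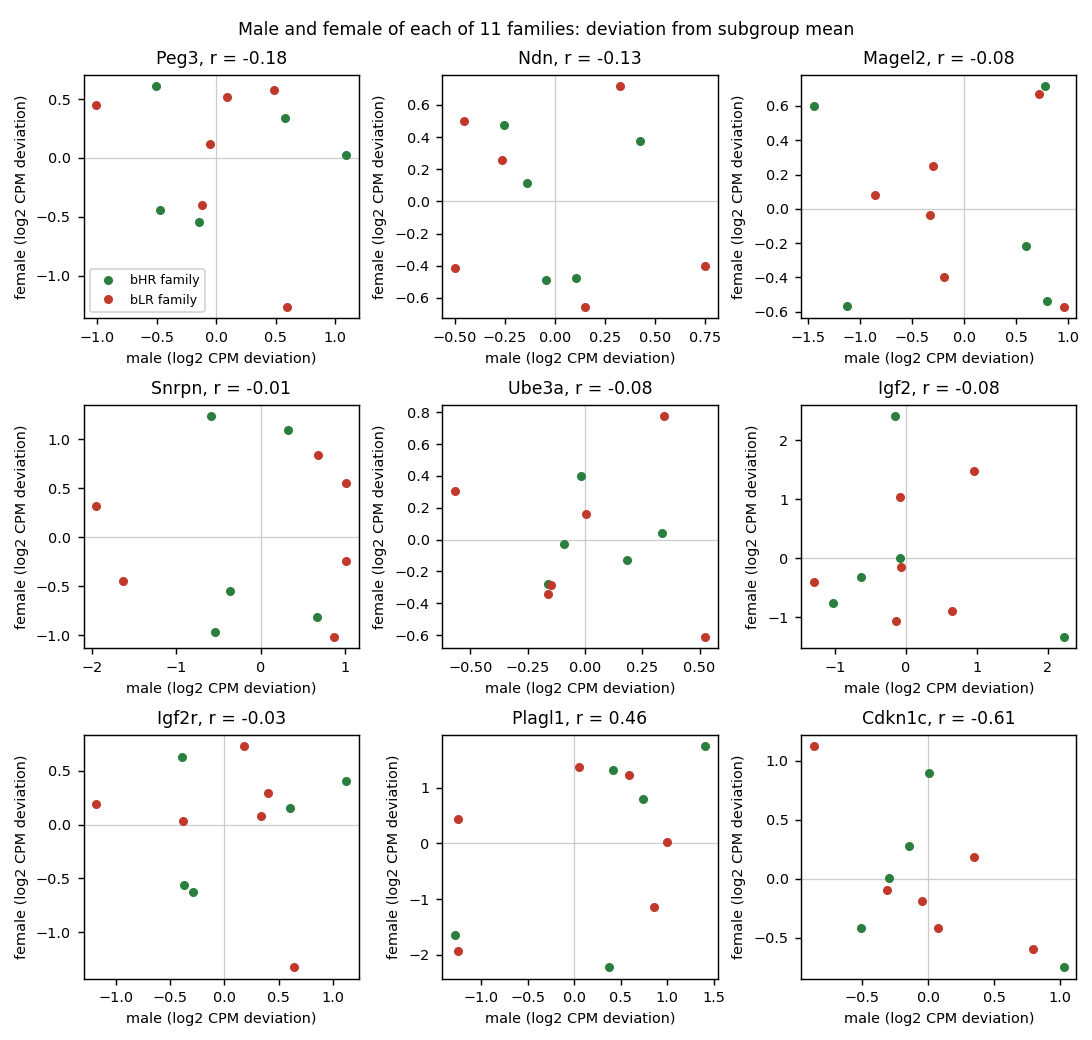
Deviation in log2 CPM of the male (horizontal axes) and the female (vertical axes) of each of 11 families from the mean of their subgroup, with bHR families in green and bLR families in red and Pearson's r above each panel. Plagl1 has the highest r, 0.46, and Cdkn1c the lowest, -0.61.

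The 5 rats highest in Folr1 were also 5 of the 6 highest in Igf2. They were the H12 bHR female (Folr1 46.6, Igf2 220.3 CPM), the H11 bHR male (37.2 and 155), the L10 bLR male (37.2 and 97.3), the L03 bLR male (22.8 and 102) and the L07 bLR female (18.5 and 125). The exception was the L10 bLR female, with 145 CPM of Igf2 and 3.95 of Folr1. Over the 23 rats Folr1 ran from 2.55 to 46.6 CPM around a median of 6.67.

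As deviations from subgroup means, Igf2 followed Folr1 with r = 0.83 (permutation p 0.000270; rho 0.66, permutation p 0.00152), an r higher than that of 99.7% of all genes tested. Adjusted over all genes tested the p was 0.0434. On dropping the 2 rats whose Folr1 lay farthest from its median, r fell to 0.65, and without each rat in turn it stayed between 0.75 and 0.91. Cdkn1c followed Folr1 with r = 0.80 (permutation p 0.000180, adjusted over all genes tested 0.0452; rho 0.65, permutation p 0.00284), and with 0.69 without the 2 farthest rats. These 2 of the 9 members passed an unadjusted p under 0.05, as 14.7% of all genes did, and 18 relations of members to markers were computed.

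Folr1 was the 1 marker of 11 listed for the choroid plexus that could be matched to an ID, so the defining markers of that tissue (Ttr among them) were not analysed here. The 1 meningeal marker matched of 10, the anion transporter Slc22a6, ran from 0.202 to 1.34 CPM in bHRs and from 0.546 to 5.31 CPM in bLRs. Igf2 was the 1 member of 9 (1.27% of all genes) with an unadjusted p under 0.05 for it (r = 0.45, permutation p 0.0431; rho 0.51, permutation p 0.0181; adjusted over all genes tested 1.00). That p was at or above 0.05 on leaving out any 1 of 10 of the 23 rats, and reached 0.140 without the L10 bLR female. From residuals of lineage, sex, %rRNA and %intergenic the count was 7 of 9 members beside 8.95% of all genes, with r = -0.53 for Peg3 (permutation p 0.00675), 0.57 for Snrpn (permutation p 0.00380) and 0.47 for both Igf2 and Cdkn1c (permutation p 0.0147 and 0.0155). For Folr1 it stayed at 2 of 9, beside 11.3% of all genes. The 7 found for Slc22a6 are not independent, since members followed each other in these residuals (Peg3 had r = 0.86 with Igf2r and -0.78 with Snrpn). The p from residuals were not adjusted over all genes tested. These residuals can keep differences between subgroup means, which permuting within subgroups does not break. None of the 7 neuronal markers listed was matched. Of the hippocampal neuron genes picked after their values were seen, the receptor subunit gene Gabra5 was at 153 to 322 CPM and the receptor gene Mas1 at 5.57 to 34.8 CPM. With Folr1 as a covariate the lineage Log2FC of Igf2 was 0.09 (unadjusted p 0.701 in edgeR). That of Cdkn1c was 0.39 (SE 0.14, unadjusted p 0.0112, adjusted p 0.296 in edgeR), beside 0.50 (SE 0.21, unadjusted p 0.0226 in edgeR) without Folr1. The part of choroid plexus in these levels was otherwise not tested.

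**Figure D4:**
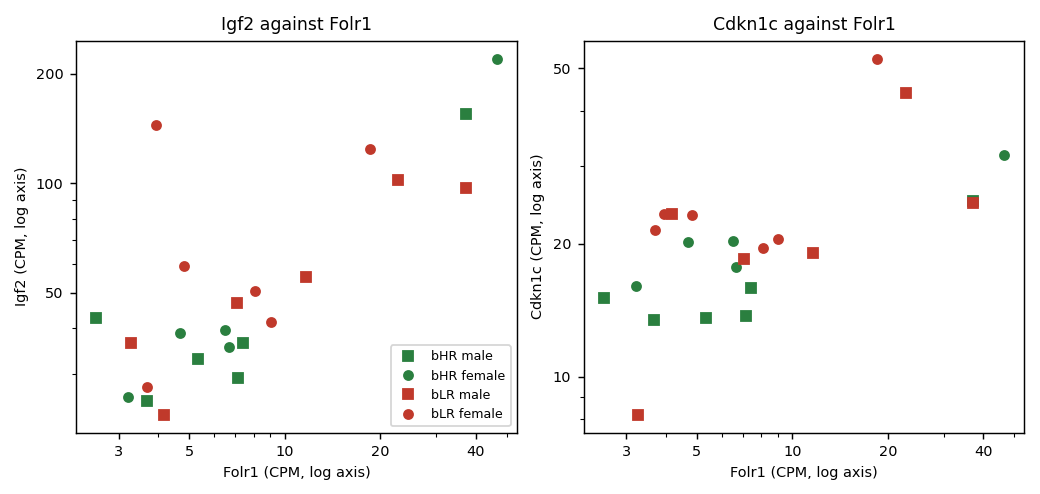
Igf2 (left) and Cdkn1c (right) against Folr1 in CPM, all on log axes, with 1 point for each of 23 rats (squares male, circles female, green bHR, red bLR). The rats above 18 CPM of Folr1 lie at the top for Igf2, and 1 bLR female with 145 CPM of Igf2 lies apart at 3.95 CPM of Folr1.

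Levels were also set against the technical composition of the library. %rRNA is the share of reads from ribosomal RNA (1.23 to 3.98% over the 23 rats) and %intergenic that from outside genes (8.74 to 13.5%). For %rRNA, 4 of the 9 had an unadjusted p under 0.05, as 68.6% of all genes did. Snrpn fell with it (r = -0.78, permutation p 0.000110, rho -0.82, r = -0.88 without the 2 farthest rats), and so did Plagl1 (r = -0.73, permutation p 0.000380, rho -0.72). Ndn rose with it (r = 0.74, permutation p 0.000660, rho 0.75), and so did Ube3a (r = 0.70, permutation p 0.00112, rho 0.70). Adjusted over all genes tested these were 0.000292, 0.00129, 0.00166 and 0.00320.

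For %intergenic, 3 of the 9 had an unadjusted p under 0.05, beside 58.7% of all genes. Igf2r rose with it (r = 0.77, permutation p 0.0000400, rho 0.82, adjusted 0.000521), as did Peg3 (r = 0.64, permutation p 0.00358, rho 0.63, adjusted 0.0111). Cdkn1c had r = -0.47 (permutation p 0.0335, rho -0.56, adjusted 0.0617). Within the 4 subgroups r for Igf2r was 0.88, 0.60, 0.62 and 0.96, and for Snrpn with %rRNA -0.67, -0.82, -0.91 and -0.75. For Plagl1 it was 0.19 in bHR males and -0.80 to -0.93 in the other subgroups, and for Ndn -0.04 in bHR males and 0.62 to 0.93 in the others.

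Members were then compared with each other over the 23 rats, 36 pairs in all. Peg3 and Igf2r rose and fell together (r = 0.93, rho 0.92, permutation p 1e-05 for both, the smallest the permutations can give), an r to Peg3 higher than that of 99.8% of all genes tested. Ndn and Ube3a did so with r = 0.87 (rho 0.83, permutation p 1e-05 for r), and Peg3 and Ube3a with r = 0.83 (rho 0.84, permutation p 1e-05 for r). With lineage, sex and the technical shares taken out, r was 0.86, 0.79 and 0.83. Adjusted over the correlations of Peg3 with all genes tested, its pairs with Igf2r and Ube3a had a p of 0.000562.

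Ndn and Snrpn, of the Prader-Willi region and both known as paternally expressed, went in opposite directions (r = -0.80, rho -0.81, permutation p 0.0000700, adjusted 0.00149). Of all genes tested, 4.83% had a lower r with Ndn than Snrpn had, and 1.71% a lower r with Snrpn than Ndn had. For Ndn against Snurf, with more reads than Snrpn, r was -0.91 (rho -0.90, permutation p 1e-05), lower than for all but 0.0434% of the genes tested. It was -0.81 with the technical shares taken out. Snrpn and Snurf rose and fell together (r = 0.91, rho 0.90, permutation p 1e-05), on a locus where their reads overlap. The Snurf and Ndn windows printed above belong to this pair.

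Igf2 and Cdkn1c, neighbours in 1 cluster but known to be expressed from opposite parental copies, rose and fell together (r = 0.78, permutation p 0.000280; rho 0.71, permutation p 0.000660). Adjusted over the correlations of each with all genes tested, p was 0.0461 for Igf2 and 0.0922 for Cdkn1c. On dropping the 2 rats whose Igf2 lay farthest from its median, r was 0.67. Igf2 and the receptor gene Igf2r had r = -0.000985 (permutation p 0.997; rho 0.00395, permutation p 0.988). Magel2, beside Ndn on the chromosome, had r = 0.45 with it (rho 0.44, permutation p 0.0175, adjusted over genes 0.0362 for Ndn and 0.381 for Magel2) and 0.65 with Peg3 (rho 0.69, permutation p 0.00254, adjusted 0.0273 for Peg3 and 0.335 for Magel2). Of all genes tested, 72.1% had a lower r with Ndn than Magel2 had, and 52.0% had an r with Ndn of 0.5 or more in size. With Magel2, 94.7% had a lower r than Ndn, and with Peg3, 92.4% had a lower r than Magel2.

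**Figure D5:**
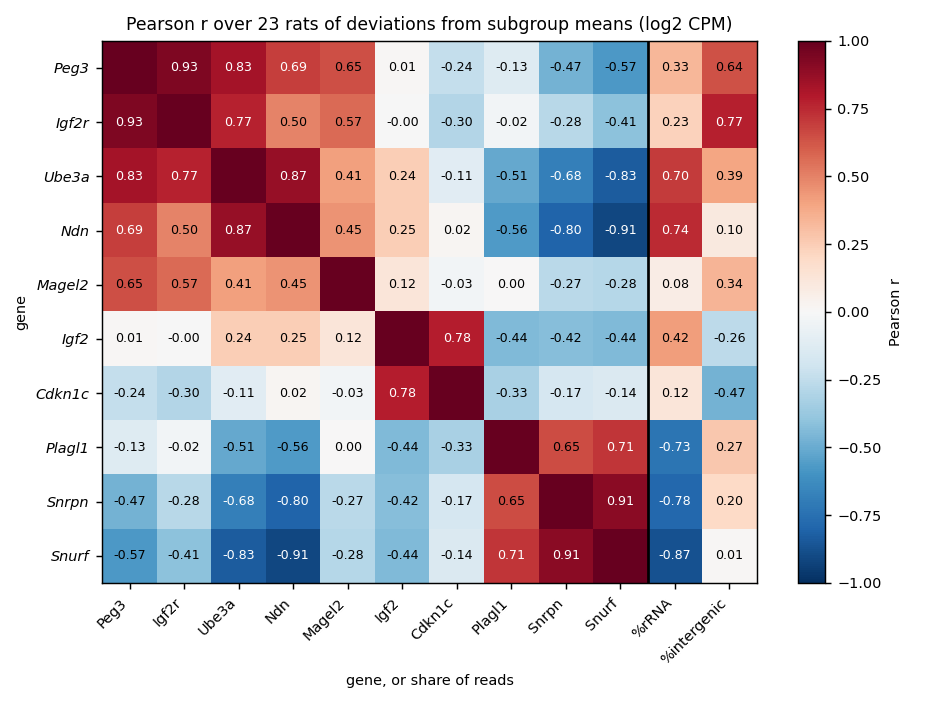
Pearson's r over 23 rats between the 9 genes and Snurf, and with %rRNA and %intergenic (last columns), from deviations of log2 CPM from subgroup means, in red above 0 and blue below. Peg3, Igf2r, Ube3a and Ndn form a red block, with r between 0.50 and 0.93, and the Snurf row is at -0.91 for Ndn.

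Among the 1928 tested genes with a symbol, the 2 most like each member were found from residuals of lineage, sex, %rRNA and %intergenic over the 23 rats. For Igf2r they were Lats1 (r = 0.94), a kinase of the Hippo pathway, and Btaf1 (0.92), a regulator of the TATA-binding protein. Btaf1 was also second for Peg3 (0.87), after the oxysterol-binding protein gene Osbp (0.88). For Magel2 the first was Usp29 (0.80), the imprinted neighbour of Peg3. For Cdkn1c they were Slc16a12 (0.83), a transporter gene, and Ca13 (0.82), a carbonic anhydrase, and for Igf2 Scgb1c1 (0.86) and Pik3ap1 (0.85).

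For Ube3a they were Rbbp6 (0.91), another ubiquitin ligase, and Tent4a (0.91). For Ndn they were Cast (0.88), the calpain inhibitor, and Tmem135 (0.88). Snrpn was most like Ube2m (0.86) and Gde1 (0.83), and for Plagl1 Rab3c (0.72) was among them.

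Within each line the members were set against the LocoScore, the locomotor count the lines were selected on, with both centred on the mean of the sex. The score ran from 1533 to 2949 in the 11 bHRs and from 23 to 101 in the 12 bLRs. Over 18 relations, 0 of 9 had an unadjusted permutation p under 0.05 in bHRs (3.63% of all genes) and 0 of 9 in bLRs (2.59%). The smallest p was 0.110, for Plagl1 in bHRs (r = 0.54, rho 0.54, permutation p for rho 0.108), where dropping the 2 rats with the most distant scores gave r = 0.31. In bLRs the smallest was 0.261, for Igf2 (r = 0.35, rho 0.47, permutation p for rho 0.110), where dropping the 2 most distant scores gave r = 0.72. Adjusted over all genes tested the members stood at 0.437 or above.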

How the data were processed

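Poly-A libraries of whole hippocampus from 24 rats were sequenced as paired ends. The authors mapped reads to Rnor6 using STAR 2.7.3a, retained uniquely placed ones and assigned them by strand to Ensembl genes using Subread 2.0.0; the deposited file has their raw, unscaled counts. The members' symbols and coordinates came from the chromosome 1 genes that the study tabulates, and some other symbols from a second table of the study (1934 genes with a symbol in all).

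The 13838 genes reaching 1 CPM in 25% or more of 23 rats entered the quasi-likelihood test of edgeR 4.0.16 (R 4.3.3, TMM scaling) in a model of lineage and sex adjusted for both %rRNA and %intergenic. The interaction was fitted with %rRNA alone. Relations used log2 CPM (prior count 2) as deviations from subgroup means and 100000 permutations within subgroups (numpy 2.4.6, scipy 1.17.1). Benjamini-Hochberg adjustment ran over all genes tested, not over the members as first planned. Printed CPM are per library total.

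The members, lists and tests were chosen with earlier results of these data known. All 9 members, Snurf, listed genes past FDR < 0.10 and the 2 genes most like each member are named by rule, except 1 that is not reported here. Phlda2, Mkrn3, Gabra5 and Mas1, the correlations with %rRNA, %intergenic and among members, and Folr1 as a covariate were chosen after seeing the data. On simulated lineage differences of Log2FC 1, 97% of changed genes were recovered, with 27 false calls over both fold sizes simulated. Those genes were drawn at random from all genes tested, and effects of sex, %rRNA and %intergenic were not simulated. Recovery for the members themselves was not simulated, and Igf2 and Plagl1 had an SE of 0.41 each. Other fits used limma 3.58.1, DESeq2 1.42.0, other scalings, filters, terms and sets of rats, and family as a block.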

Additional observations from a re-analysis of the deposited data

Results flagged for a closer look

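In 36 groups (9 genes in 4 subgroups of line and sex), the highest and lowest rats were checked for a gap to the next rat that took up most of the range of the subgroup. Rats stood apart in this way in 7 groups (19.4%), beside 4.96% of the groups of all genes tested. Dixon's critical values at the 95% level, used here, let about 1 in 20 groups of normal values pass by chance. The gaps were taken on CPM without a log scale, and the 7 are not independent, since 6 of them come from 3 rats. For Igf2 they were the H11 bHR male at 155 CPM (next rat 42.7) and the H12 bHR female at 220.3 CPM (next 39.5). The same rats stood apart for Cdkn1c, at 25.0 CPM (next 15.9) and 31.7 CPM (next 20.3), and both were the highest of their subgroups in Folr1. The L07 bLR female stood apart for Cdkn1c at 52.6 CPM (next 23.4) and was also the lowest of its subgroup in Igf2r, at 10.8 CPM (next 29.1). The L03 bLR female was the highest in Magel2, at 4.52 CPM (next 2.22).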

How the results depend on the processing

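Reads were few for Snrpn (1 to 55) and Plagl1 (0 to 71), and recovery of differences smaller than a Log2FC of 1 was not simulated. Over rats left out in turn, the members called for lineage numbered 0 to 1, the 1 being Cdkn1c without the H12 bHR female (3.16% of all genes called, 0.703 to 1.49% in the other such fits). Plagl1 missed the filter in 6 of these 23 fits and in males alone, which then tested 8 members. The lineage Log2FC then ran from -0.000253 to 0.22 for Magel2 and -0.0068 to 0.67 for Igf2, and the sex Log2FC of Igf2 from -0.024 to 0.72. Lineage signs also turned for Snrpn (0.33 in females alone, 0.040 with Folr1 as a covariate), Igf2 (-0.053 without technical terms, -0.12 with %rRNA alone, -0.018 in males, -0.24 in females) and Plagl1 (0.016 in females alone). Interaction signs turned for Peg3 with %intergenic added (-0.37) and Igf2 over all 24 rats (0.0093). The causes were not tested.

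With family as a replicate block, 0 of the 9 members were called for lineage (1.38% of all genes) and 0 for sex (0.412%) in limma-voom (random effect, consensus correlation 0.00852), and 0 for sex as a fixed block (0.138%).

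Members with a family p under 0.05 numbered 1 (Cdkn1c) from residuals (2.88% of all genes), 1 with library size alone (2.7%), and 0 to 1 over families left out (1.65 to 10.4%). Then r ran from -0.28 to 0.050 for Peg3, -0.32 to 0.048 for Ndn, -0.28 to 0.18 for Magel2, -0.12 to 0.12 for Snrpn, -0.44 to 0.28 for Ube3a, -0.25 to 0.33 for Igf2 and -0.18 to 0.28 for Igf2r. With library size alone r was 0.19 for Peg3, 0.36 for Magel2, 0.062 for Snrpn, 0.035 for Ube3a and 0.26 for Igf2r, and Magel2 had 0.12 from residuals. The spread between lines gave 0 members with library size alone (1.94% of all genes), 0 over all 24 rats (2.74%) and 0 from residuals (3.55%). Its sign turned with library size alone for Peg3 (-0.12), Ube3a (-0.026) and Igf2 (0.070), over all 24 rats for Peg3 (-0.026) and Cdkn1c (-0.016), and from residuals for Ndn (-0.031) and Igf2 (0.0030). Cdkn1c with Slc22a6 had r = 0.47 from residuals, and Igf2 with Slc22a6 0.34 to 0.53 over rats left out.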
